A study of Mus musculus with 16 samples.

Results

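The state of RAW264.7 cells after 72 h with cancer vesicles and RANKL together was set against the state of the same cells after 72 h with saline. RAW264.7 is a mouse macrophage line, labelled here as an osteoclast precursor. The EV+RANKL group received GST-tagged recombinant mouse RANKL at 10 ng/mL and, at 30 µg/mL, extracellular vesicles (EV) shed by PC3M, a metastatic human prostate cancer line. The PBS group received neither agent. All cells had first attached for 12 h, and all groups share the same line and medium. The comparison uses 4 of the series' 16 libraries, chosen by their labels, with 2 libraries in each group (n = 2 per group throughout). The other libraries come from EV alone or RANKL alone at 72 h or 48 h and from PBS and EV+RANKL at 48 h, again 2 per group. They place the EV+RANKL state at 72 h. They also count in the choice of tested genes and in the estimate of spread behind each standard error and p-value. Whether the 2 libraries of a group stem from separate cultures is not stated in the labels, so every p-value measures a spread between samples that may be only technical. RAW264.7 is a single virally transformed line, so the state described is that of 1 line.

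Osteoclasts are the cells that resorb bone, and they form when precursors of the macrophage lineage fuse. RANKL binds its receptor RANK, activates NF-kB and the AP-1 protein FOS, and with calcium signals from ITAM-bearing adaptors induces NFATC1, the master transcription factor of the lineage. NFATC1 and its partners then switch on genes for cell fusion, for the actin ring that seals the cell to bone, and for the acid and proteases that dissolve it. Type I interferon signalling and factors such as IRF8 are known to hold the process back.

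Expression is given as RPKM, reads per gene length and library size, recovered from deposited values that were taken to be log2(RPKM + 1). Depth, estimated from the values of single-exon genes, was 18.4 to 20.0 M reads per library, so that 1 read in a transcript of 1 kb was worth at most 0.0544 RPKM and 3 reads at most 0.163 RPKM. Tests covered 10365 of 20490 genes, those at 1 RPKM or more in at least 2 of the 16 libraries. By their second-highest library, Dnmt3l at 1.0007 RPKM and Phf11c at 1.0070 RPKM lay just inside this limit, and Pqlc2 at 0.9997 RPKM and Batf2 at 0.9984 RPKM just outside. A log2 difference below is the EV+RANKL mean minus the PBS mean of log2(RPKM + 1), with its standard error from limma, and it understates the change of genes near or under 1 RPKM. A gene is called changed where limma's Benjamini-Hochberg adjusted p was under 0.05.

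Markers of macrophages and of osteoclasts were both present. Adgre1, which encodes the macrophage antigen F4/80, stood at 21.7 and 20.5 RPKM in EV+RANKL libraries, against 22.9 and 20.8 RPKM in PBS libraries. Most other genes of the macrophage list were lower, 12 of 17 tested, where 22.1% of all tested genes were called lower. The osteoclast enzyme gene Acp5 stood at 663 and 435 RPKM in EV+RANKL libraries, against 0.642 and 0.437 RPKM in PBS libraries. Of 14 listed epithelial or carcinoma markers 7 have a row in the table, and Krt8, Krt19 and Cldn7 were listed at 0 in all 4 libraries. Epcam read 0.0499 and 0.0256 RPKM in EV+RANKL libraries, against 0 in both PBS libraries, values near the worth of single reads. Met, also on that list, read 0.252 and 0.197 RPKM in EV+RANKL libraries and 0 in both PBS libraries, and Cav1 was called lower (-1.53 ± 0.29, adjusted p = 0.00129). The sum over the 7 markers was 300 to 320 RPKM in EV+RANKL libraries, against 231 to 267 RPKM in PBS libraries, and nearly all of it was Vim, which macrophages express too. Of 14 osteoblast and stromal markers 10 have a row and only Spp1 reached the tested level, and of 20 markers of other blood cells 12 have a row and 3 were tested (Itgax, Pf4 and S100a8).

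Of the 10365 tested genes, 4348 (41.9%) were called, 2058 higher (19.9%) and 2290 lower (22.1%) in EV+RANKL cells than in PBS cells at 72 h. The counts of each gene list at 72 h are to be read beside these shares. A change of at least 2-fold was called for 392 genes that rose and 281 that fell, and one of at least 8-fold for 23 that rose and 6 that fell. The median difference over all tested genes was -0.02. Of the 469 listed genes tested, Itgb3, Mmp14 and Spry1 reached the tested level only with the EV+RANKL libraries of 72 h, and Ccl6, Ifit1, Ifit3, Nos2, Oasl2 and Rsad2 only with the PBS libraries of 72 h. The direction of these 9 genes is tied to how they entered the test. Over all tested genes 82 entered only with those EV+RANKL libraries and 35 only with those PBS libraries. Fewer cells of a type and less RNA per cell of that type cannot be told apart in these bulk samples. The number called was 2715 without the first EV+RANKL library and 2875 without the second PBS library.

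The genes of bone resorption had the highest median change of the 22 pathway lists. Of 21 tested genes of the resorption list 15 were called higher and 0 lower, with a median difference of 0.99 on the log2 scale, where 19.9% of all tested genes were called higher. Mmp14, 1 of the 15, was tested only through the EV+RANKL libraries of 72 h. Its own difference was 0.99, so the median falls on its value. Acp5 encodes tartrate-resistant acid phosphatase, the classical stain of osteoclasts, and its values given above correspond to a log2 difference of 8.45 ± 0.26 (adjusted p = 1.5e-09), the widest of all named genes. Atp6v0d2, a subunit of the proton pump that also serves cell fusion, stood at 313 and 226 RPKM in EV+RANKL libraries, against 1.54 and 0.779 RPKM in PBS libraries (6.97 ± 0.32, adjusted p = 4.1e-08). Ctsk, encoding the collagen-cutting protease cathepsin K, stood at 413 and 249 RPKM in EV+RANKL libraries, against 3.71 and 2.16 RPKM in PBS libraries (6.38 ± 0.49, adjusted p = 2.6e-06). For all 3 genes the groups lay far apart, and the first EV+RANKL library was the higher of the pair.

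**Figure D1:**
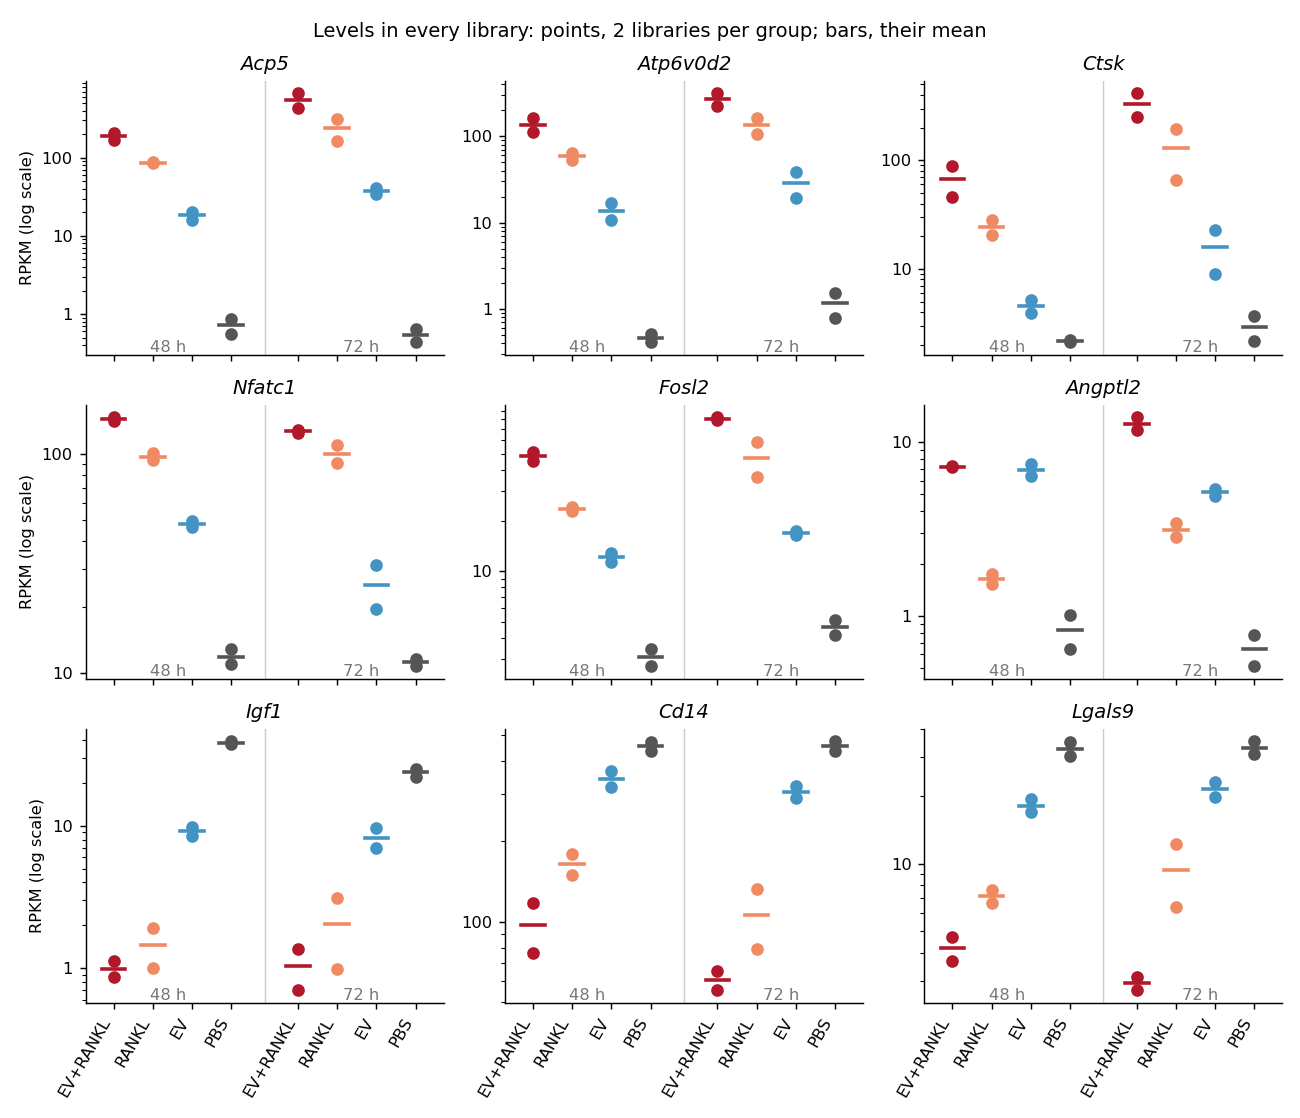
RPKM on a log scale for 9 genes in all 16 libraries, by treatment at 48 h and 72 h; points are the 2 libraries of a group and bars their mean. Acp5, Atp6v0d2, Ctsk, Fosl2 and Angptl2 are highest in the EV+RANKL libraries of 72 h, Nfatc1 is higher at 48 h than at 72 h under EV+RANKL, and Igf1, Cd14 and Lgals9 are far below PBS in EV+RANKL cells at either time.

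Smaller rises covered the rest of the acid and protease apparatus. Mmp9, encoding a gelatinase, stood at 22.1 and 8.0 RPKM in EV+RANKL libraries, against 0.262 and 0.114 RPKM in PBS libraries (3.60 ± 0.36, adjusted p = 1.6e-05). Slc9b2, encoding a sodium-proton antiporter of the osteoclast, stood at 17.9 and 12.0 RPKM in EV+RANKL libraries and was listed at 0 in both PBS libraries. Car2, the carbonic anhydrase that supplies the protons, stood at 65.3 and 51.0 RPKM in EV+RANKL libraries, against 23.3 and 13.8 RPKM in PBS libraries (1.63 ± 0.26, adjusted p = 0.00045). None of these groups overlapped, which held for all 4348 called genes. Over all 10365 tested genes 3636 were higher without overlap and 3969 lower. The chloride-bicarbonate exchanger gene Slc4a2 rose by 1.86 ± 0.18, the chloride-proton exchanger gene Clcn7 by 1.55 ± 0.23 and the pump subunit gene Tcirg1 by 1.48 ± 0.18. The members that were not called were Ckb, Acp2, Rab7, Rab3d, Lamp1 and Cd68, with differences from -0.38 to 0.43. Calcr, the calcitonin receptor gene, was below the tested level, at 0.0781 and 0.133 RPKM in EV+RANKL libraries and 0 in both PBS libraries.

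Of 23 tested transcription factors of the lineage 13 were called higher and 5 lower, with a median of 0.46. Of all tested genes 19.9% were called higher and 22.1% lower, so the share of lower factors was near that of all genes. Nfatc1 stood at 129 and 125 RPKM in EV+RANKL libraries, against 10.8 and 11.7 RPKM in PBS libraries, an RPKM ratio of 11.3 (3.39 ± 0.17, adjusted p = 7e-08). Fosl2, encoding the AP-1 protein FRA2, stood at 82.2 and 79.4 RPKM in EV+RANKL libraries, against 5.10 and 4.17 RPKM in PBS libraries (3.86 ± 0.17, adjusted p = 4.1e-08). Within each group the libraries agreed closely for these 2 genes, and the groups did not approach each other. Fos itself differed less, at 50.5 and 44.3 RPKM in EV+RANKL libraries against 23.3 and 21.5 RPKM in PBS libraries (1.05 ± 0.14, adjusted p = 0.00012). Among other AP-1 genes, Jdp2 rose by 2.52 ± 0.14 and Junb by 0.91 ± 0.23, whereas Jun fell by 1.76 on the log2 scale (SE 0.23) and Fosl1 fell by 0.74 (SE 0.24). Prdm1, encoding the repressor BLIMP1, stood at 6.74 and 4.03 RPKM in EV+RANKL libraries and was listed at 0 in both PBS libraries. Mitf, a MiT family factor that acts on Acp5 and Ctsk, rose by 1.11 ± 0.12. Myc stood at 18.3 and 15.3 RPKM in EV+RANKL libraries, against 3.01 and 1.80 RPKM in PBS libraries (2.40 ± 0.33, adjusted p = 0.00016). Mef2c, a further myeloid factor, fell by 1.33 (SE 0.14), and Tfeb, Relb, Nfkb1, Esrra and Jund were not called. Without the second PBS library 2 members were called lower, and without either EV+RANKL library 3.

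Genes for fusion and costimulation were called higher in 9 of 20 cases and lower in 4, with a median of 0.37. The lower share was near the 22.1% of all tested genes, of which 19.9% were called higher. Ocstamp, encoding a membrane protein needed for precursor fusion, stood at 21.9 and 22.3 RPKM in EV+RANKL libraries, against 0.342 and 0.372 RPKM in PBS libraries (4.09 ± 0.21, adjusted p = 1.3e-07). Its partner in fusion Dcstamp stood at 22.5 and 19.9 RPKM in EV+RANKL libraries, against 1.99 and 2.98 RPKM in PBS libraries (2.68 ± 0.35, adjusted p = 9.6e-05). Both genes thus reached about the same RPKM in EV+RANKL cells from different PBS levels. Oscar, the gene of a receptor that pairs with the ITAM adaptor FCER1G, stood at 17.9 and 11.2 RPKM in EV+RANKL libraries, against 0.0295 and 0.0273 RPKM in PBS libraries, values worth under 1 read per kilobase (3.89 ± 0.40, adjusted p = 1.7e-05). Siglec15, a receptor that signals through the adaptor DAP12, rose by 3.0 ± 0.29 and the kinase gene Syk by 1.03 ± 0.17. Tyrobp, which encodes DAP12, was called higher by 0.58 ± 0.17 (adjusted p = 0.0149), but its adjusted p reached 0.104 when 1 library was left out. Trem2, another DAP12 partner, was not called, at 28.3 and 24.9 RPKM in EV+RANKL libraries against 30.5 and 26.7 RPKM in PBS libraries. Cd44, Adam8, Cd81 and Plcg2 were the 4 lower members, with differences from -0.71 to -0.30.

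Of 21 tested integrin and actin ring genes 11 were called higher and 3 lower, with a median of 0.80. Src, the kinase that organizes the ruffled border, stood at 22.2 and 15.7 RPKM in EV+RANKL libraries, against 1.02 and 0.714 RPKM in PBS libraries (3.40 ± 0.25, adjusted p = 1.7e-06). Of the vitronectin receptor's chains, Itgav rose by 2.12 ± 0.22. Itgb3 stood at 1.48 and 1.02 RPKM in EV+RANKL libraries, against 0.0277 and 0 RPKM in PBS libraries, and is among the genes tested only through the EV+RANKL libraries. Gsn, encoding the actin-severing gelsolin, rose by 2.13 ± 0.22, the guanine exchange factor gene Dock5 by 2.02 ± 0.15 and the vinculin gene Vcl by 1.23 ± 0.14. The lower members were Ptk2b, encoding the kinase PYK2, with -0.44 ± 0.13, Arpc2 with -0.40 ± 0.08 and Itgb1 with -0.28 ± 0.09. Without the second PBS library 1 member was called lower.

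Transcript levels of the receptor and of its cytoplasmic cascade changed little beside these targets. Of 25 tested genes of RANK and NF-kB signalling 4 were called higher and 2 lower, with a median of 0.11, smaller shares than the 19.9% and 22.1% of all tested genes. Tnfrsf11a, the gene of RANK, was not called, at 24.3 and 28.8 RPKM in EV+RANKL libraries against 15.4 and 23.9 RPKM in PBS libraries (0.44 ± 0.20, adjusted p = 0.0949). The PBS libraries differed from each other by more than the second of them differed from the first EV+RANKL library. The NF-kB inhibitor gene Nfkbie rose by 0.99 ± 0.13, Traf5 by 0.90 ± 0.13, Ikbkg by 0.87 ± 0.10 and Traf1 by 0.78 ± 0.18. Traf6, Map3k7, Chuk and Ikbkb, core members of the cascade, were not called, with differences from -0.12 to 0.12.

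Known brakes of osteoclast formation were called higher in 6 of 19 cases and lower in 6, with a median of -0.20. Over all tested genes the shares were 19.9% higher and 22.1% lower. Irf8 stood at 2.57 and 1.27 RPKM in EV+RANKL libraries, against 11 and 7.50 RPKM in PBS libraries (-1.83 ± 0.26, adjusted p = 0.00018). This transcription factor maintains the macrophage program. Lilrb4, an inhibitory receptor gene, fell by 2.46 (SE 0.40), and Rbpj, the effector of Notch signalling, fell by 1.03 (SE 0.12). In the other direction, Rcan1, an inhibitor of calcineurin that NFATC1 itself induces, stood at 50.2 RPKM in both EV+RANKL libraries, against 8.26 and 10.2 RPKM in PBS libraries (2.33 ± 0.18, adjusted p = 2.2e-06). Without the second PBS library 2 members were called higher, and without either EV+RANKL library 3.

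Of 17 tested macrophage identity genes 12 were called lower and 2 higher, with a median of -1.62. Cd14, the endotoxin coreceptor gene, stood at 65.3 and 55.6 RPKM in EV+RANKL libraries, against 437 and 473 RPKM in PBS libraries (-2.89 ± 0.22, adjusted p = 2.6e-06). Lyz1, encoding a lysozyme with a close paralog that can share reads with it, stood at 676 and 443 RPKM in EV+RANKL libraries, against 3431 and 3458 RPKM in PBS libraries (-2.65 ± 0.21, adjusted p = 3.3e-06). The paralog Lyz2 fell by 2.43 (SE 0.20). The complement receptor gene C5ar1 stood at 7.17 and 5.03 RPKM in EV+RANKL libraries, against 45.5 and 46.4 RPKM in PBS libraries (-2.74 ± 0.40, adjusted p = 0.00024), and the high-affinity IgG receptor gene Fcgr1 fell by 2.58 (SE 0.19). Other members did not follow. Csf1r, the receptor for the macrophage growth factor M-CSF, stood at 349 and 310 RPKM in EV+RANKL libraries, against 251 and 243 RPKM in PBS libraries (0.41 ± 0.11, adjusted p = 0.00934), with an adjusted p of up to 0.0919 when 1 library was left out, and Tyrobp above lost its call with the same libraries, the first of EV+RANKL and the second of PBS. Fcgr4, the gene of another IgG receptor, rose by 2.08 ± 0.23, and Adgre1, Itgam and Fcgr2b were not called.

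Of 21 tested cytokine and chemokine genes 8 were called lower and 4 higher, with a median of -0.37. The higher share was near the 19.9% of all tested genes, of which 22.1% were called lower. Ccl6 and Nos2, on this list, were tested only through the PBS libraries of 72 h, and 1 of them was called. Igf1, a growth factor gene that macrophages express, showed the widest fall among the named genes, with 1.37 and 0.700 RPKM in EV+RANKL libraries against 22.2 and 25.3 RPKM in PBS libraries (-3.62 ± 0.28, adjusted p = 2.8e-06). Ccl4, a chemokine gene, fell by 2.03 (SE 0.32), the prostaglandin synthase gene Ptgs2 by 1.50 (SE 0.15) and Tnf by 1.07 (SE 0.19). The growth factor genes Pdgfb and Pdgfa, by contrast, rose by 2.01 ± 0.24 and 1.81 ± 0.15. Ccr1, a receptor gene for chemokines such as CCL3, stood at 43.6 and 28.3 RPKM in EV+RANKL libraries, against 0.673 and 0.445 RPKM in PBS libraries (4.54 ± 0.32, adjusted p = 1.5e-06). Cybb, the catalytic subunit of the phagocyte oxidase, stood at 15.5 and 11.4 RPKM in EV+RANKL libraries, against 137 and 139 RPKM in PBS libraries (-3.27 ± 0.32, adjusted p = 1.2e-05). Gpr84, a fatty acid receptor gene of activated macrophages, fell by 3.14 (SE 0.28). Spp1, encoding osteopontin and listed here as a bone marker that macrophages also express, stood at 954 and 677 RPKM in EV+RANKL libraries, against 2711 and 3026 RPKM in PBS libraries (-1.83 ± 0.21, adjusted p = 4.3e-05).

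**Figure D2:**
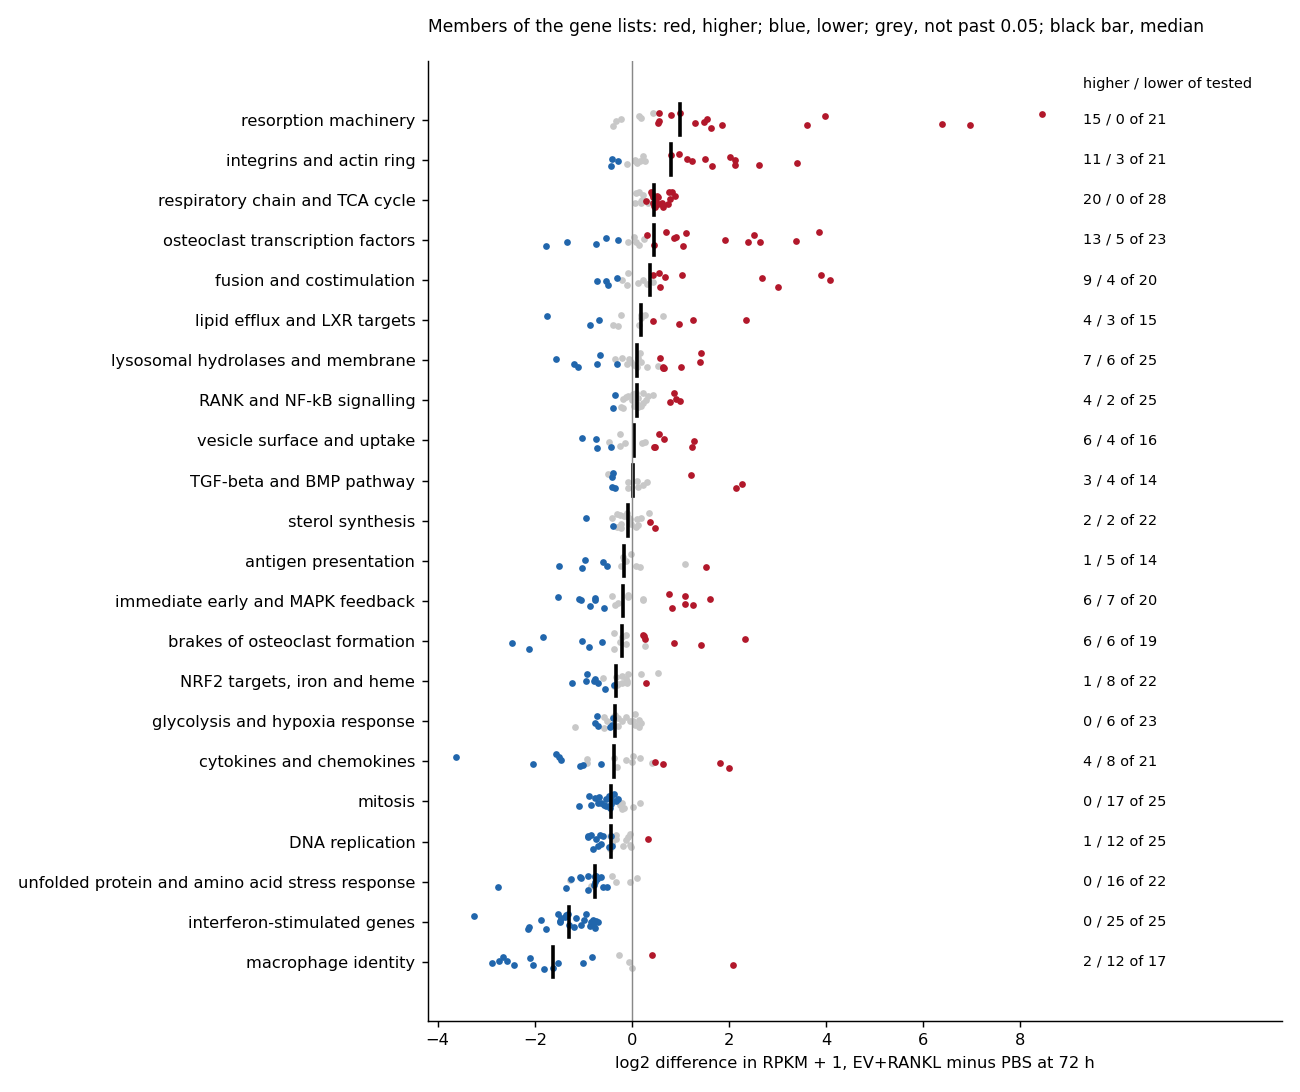
Log2 difference of RPKM + 1, EV+RANKL minus PBS at 72 h, for each tested member of 22 gene lists; red points were called higher, blue lower and grey neither, black bars are medians, and the numbers at the right count the calls. The lists run from resorption machinery, 15 of 21 higher, down to macrophage identity, 12 of 17 lower.

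Every tested interferon-stimulated gene was called lower, 25 of 25, with a median of -1.29 and a range from -3.26 to -0.70, where 22.1% of all tested genes were called lower. Ifit1, Ifit3, Oasl2 and Rsad2 are among these 25 and were tested only through the PBS libraries; the 21 others reached the tested level without them. Summed over the 28 listed genes, expression was 80.7 and 83.9 RPKM in EV+RANKL libraries, against 223 and 288 RPKM in PBS libraries. Rtp4, an interferon-induced chaperone of membrane receptors, stood at 2.78 and 2.15 RPKM in EV+RANKL libraries, against 24.1 and 42.8 RPKM in PBS libraries (-3.26 ± 0.37, adjusted p = 4e-05). Irf7, the amplifier of the interferon response, stood at 2.58 and 1.50 RPKM in EV+RANKL libraries, against 11 and 13.1 RPKM in PBS libraries (-2.12 ± 0.27, adjusted p = 9.6e-05). The PBS libraries differed for Rtp4 but stayed well above both EV+RANKL libraries. Oas1a, a sensor of double-stranded RNA, fell by 1.49 (SE 0.14), and Isg15, a ubiquitin-like modifier, by 1.47 (SE 0.21). Stat2 and Irf9, which carry the signal from the receptor, fell by 0.70 (SE 0.13) and 0.94 (SE 0.12). Of the 3 untested members, Mx2 read 0.0564 and 0.0577 RPKM in EV+RANKL libraries, against 0.467 and 0.942 RPKM in PBS libraries. All 25 tested members were also called lower in EV+RANKL than in PBS cells at 48 h, in other libraries, with a median of -1.10.

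Antigen presentation genes showed 5 of 14 lower and 1 higher, where 22.1% and 19.9% of all tested genes were. B2m, the light chain of MHC class I, fell by 1.51 (SE 0.24) and the heavy chain gene H2-K1 by 1.02 (SE 0.14), a member of a multigene family whose reads may be shared. Cd80, a costimulatory ligand gene, rose by 1.52 ± 0.21. The MHC class II genes H2-Aa, H2-Ab1 and H2-Eb1 were below the tested level, with at most 0.132 RPKM in any of the 4 libraries.

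Promoter windows were read for genes with an entry in the RefSeq promoter table (build GRCm38.p6), which covers 250 bases before to 50 bases after a gene's start. A window was found for 7798 of the 10365 tested genes. The core of the interferon-stimulated response element was searched as GAAANNGAA on both strands. It was present in 44 of 201 windows (21.9%) of genes that fell by at least 2-fold, in 23 of 287 windows (8.01%) of genes that rose by at least 2-fold and in 570 of 7798 windows (7.31%) of all tested genes. Among all genes called lower, with no limit on size, the share was 8.27% (143 of 1730 windows), and among all called higher 7.66%, both near that of all tested genes. Of 19 windows of interferon-stimulated genes 12 held it (63.2%). The AP-1 site, searched as TGANTCA on both strands, was in 11.4% of the windows of falling genes, 8.36% of those of rising genes and 4.62% of all. The NFAT core TTTTCCA was in 8.46%, 6.27% and 4.48% of the same sets, and the MiT family E-box TCANGTGA in 2.49%, 3.14% and 4.28%. Among all genes called lower the AP-1 site was in 4.28%, the NFAT core in 4.62% and the E-box in 3.7%, and among all called higher in 5.89%, 4.13% and 4.19%. Of the 12 widest rises 9 have a window and 4 of these held none of the 4 motifs; of the 12 widest falls 10 have a window and 5 held none. Matches also occurred against the sets' pattern, since the windows of Fosl2 and Acp5, which rose, held the GAAANNGAA core. The windows below show such letters in 2 genes with wide falls, Cybb and Lgals9, and in 2 genes with wide rises, Oscar and Rufy4, all among the 12 widest changes in their direction and chosen because their windows hold matches. They are printed from 5′ to 3′ on the gene's strand, with every match in capitals; a match is a description of these letters and not of binding.
Cybb (GRCm38.p6, chrX:9469275-9469574, minus strand): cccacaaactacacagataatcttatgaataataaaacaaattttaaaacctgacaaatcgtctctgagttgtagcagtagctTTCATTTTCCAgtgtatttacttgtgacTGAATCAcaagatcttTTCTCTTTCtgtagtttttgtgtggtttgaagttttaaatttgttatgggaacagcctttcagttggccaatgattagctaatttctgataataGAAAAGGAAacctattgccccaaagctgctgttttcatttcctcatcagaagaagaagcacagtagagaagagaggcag
Lgals9 (GRCm38.p6, chr11:78984875-78985174, minus strand): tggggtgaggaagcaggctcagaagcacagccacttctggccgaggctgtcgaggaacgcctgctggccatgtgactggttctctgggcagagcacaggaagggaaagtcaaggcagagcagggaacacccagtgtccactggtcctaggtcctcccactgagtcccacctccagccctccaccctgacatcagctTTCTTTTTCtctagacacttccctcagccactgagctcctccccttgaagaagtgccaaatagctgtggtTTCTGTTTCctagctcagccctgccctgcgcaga
Oscar (GRCm38.p6, chr7:3616108-3616407, minus strand): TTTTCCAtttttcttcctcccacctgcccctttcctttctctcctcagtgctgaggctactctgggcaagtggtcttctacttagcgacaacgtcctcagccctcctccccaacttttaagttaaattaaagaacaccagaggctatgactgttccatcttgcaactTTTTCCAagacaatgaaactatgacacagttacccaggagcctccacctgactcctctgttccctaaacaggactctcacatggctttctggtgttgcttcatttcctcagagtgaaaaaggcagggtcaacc
Rufy4 (GRCm38.p6, chr1:74125291-74125590, plus strand): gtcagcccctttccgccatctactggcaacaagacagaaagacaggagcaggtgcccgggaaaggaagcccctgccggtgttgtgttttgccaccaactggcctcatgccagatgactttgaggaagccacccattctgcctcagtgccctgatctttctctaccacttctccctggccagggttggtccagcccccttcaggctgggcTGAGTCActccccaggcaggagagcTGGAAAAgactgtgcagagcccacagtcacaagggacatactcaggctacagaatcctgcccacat

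The Cybb window holds 3 matches to GAAANNGAA, which begin 167, 123 and 29 bases before the start, an NFAT core that overlaps the first of them and an AP-1 site that begins 139 bases before the start. The Lgals9 window holds 2 matches to GAAANNGAA, 1 beginning 54 bases before the start and 1 after it. Lgals9, encoding the lectin galectin-9, stood at 3.12 and 2.73 RPKM in EV+RANKL libraries, against 30.8 and 35.2 RPKM in PBS libraries (-3.11 ± 0.21, adjusted p = 9.6e-07). The Oscar window holds 2 NFAT cores, 250 and 83 bases before the start, and the Rufy4 window an NFAT core 16 bases and an AP-1 site 41 bases before it. Rufy4, a gene linked to lysosome and autophagosome traffic, stood at 15.5 and 10.4 RPKM in EV+RANKL libraries and was listed at 0 in both PBS libraries.

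Of 28 respiratory chain and TCA cycle genes 20 were called higher and 0 lower, with a median of 0.46 and a highest difference of 0.88. Ndufs3, a complex I subunit gene, stood at 18.5 and 20.5 RPKM in EV+RANKL libraries, against 10.5 and 9.69 RPKM in PBS libraries (0.88 ± 0.14, adjusted p = 0.00042). Sdha, of complex II, stood at 88.8 and 90.7 RPKM in EV+RANKL libraries, against 58.9 and 56.2 RPKM in PBS libraries (0.63 ± 0.10, adjusted p = 0.00046). Genes encoded by mitochondrial DNA took 26.0% and 25% of the summed RPKM in EV+RANKL libraries, against 20.3% and 20.8% in PBS libraries. The number of respiratory and TCA genes called was 11 without the second PBS library, 12 without the second EV+RANKL library and 9 with only the libraries of 72 h in the fit. Cytosolic ribosomal protein genes, taken by name, were called higher in 52 of 80 cases and lower in 0, and took 11.7% and 11.4% of the summed RPKM in EV+RANKL libraries, against 10.0% and 8.83% in PBS libraries. That count was 25 without the second PBS library, 33 without the first EV+RANKL library and 32 with only the libraries of 72 h. With libraries scaled to equal sums without mitochondrial genes, 21 respiratory and TCA genes and 57 ribosomal protein genes were called higher. In glycolysis and the hypoxia response 6 of 23 genes were called lower and 0 higher, a lower share close to the 22.1% of all tested genes, among them Pkm with -0.69 ± 0.11, Gapdh with -0.71 ± 0.13 and Hif1a with -0.75 ± 0.11. This count was 16 without the second PBS library, 3 without the first, with 2 then called higher, and 3 without the second EV+RANKL library.

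Lysosomal genes split into 7 higher, 6 lower and 12 not called of 25, shares near the 19.9% and 22.1% of all tested genes. Glb1, the gene of the lysosomal beta-galactosidase, was among those that rose, by 1.43 ± 0.18. The protease genes Ctsl, Ctsc and Ctsb, whose products digest protein in macrophage lysosomes, fell by 1.56 (SE 0.18), 1.20 (SE 0.20) and 1.10 (SE 0.22), opposite to Ctsk. Ctsl stood at 172 and 132 RPKM in EV+RANKL libraries, against 457 and 437 RPKM in PBS libraries. Without the first EV+RANKL library or without the second PBS library 4 lysosomal genes were called higher.

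Iron and antioxidant genes were called lower in 8 of 22 cases and higher in 1, Fech, the last enzyme of heme synthesis. The shares over all tested genes were 22.1% lower and 19.9% higher. Fech was not called without the second EV+RANKL library, without the first PBS library or with only the libraries of 72 h. The ferritin heavy chain gene Fth1 stood at 1814 and 1463 RPKM in EV+RANKL libraries, against 3941 and 3686 RPKM in PBS libraries (-1.23 ± 0.17, adjusted p = 0.00016), and the light chain gene Ftl1 fell by 0.70 (SE 0.13). Ferritin genes have many processed copies, which can share their reads. Hmox1, the heme oxygenase, fell by 0.75 (SE 0.19), whereas the NRF2 targets Nqo1, Gclc and Txnrd1 were not called. Sterol synthesis showed 2 higher, Mvd and Stard4, and 2 lower, among them Dhcr7, of 22, and 0 or 1 was called higher whenever 1 library was left out. Among lipid handling genes, Pltp, the phospholipid transfer protein, stood at 79.3 and 82.4 RPKM in EV+RANKL libraries, against 16.7 and 13.3 RPKM in PBS libraries (2.36 ± 0.29, adjusted p = 6.8e-05), while the lipoprotein lipase gene Lpl fell by 0.68 (SE 0.18); the list held 4 higher and 3 lower of 15, near the shares of all tested genes.

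The unfolded protein and amino acid stress list held 16 lower, 0 higher and 6 not called of 22, with a median of -0.75. Over all tested genes 22.1% were called lower. Fewer members were called lower without the first PBS library, and more without the second. Slc7a5, the transporter of large neutral amino acids, stood at 11.1 and 13.1 RPKM in EV+RANKL libraries, against 35.2 and 29.8 RPKM in PBS libraries (-1.35 ± 0.15, adjusted p = 3.5e-05). The chaperone gene Hspa5 fell by 0.74 (SE 0.12) and its partner Creld2 by 1.04 (SE 0.12). For several members the PBS libraries stood apart. Atf3, a stress-induced factor, stood at 2.95 and 1.14 RPKM in EV+RANKL libraries, against 40.2 and 8.44 RPKM in PBS libraries (-2.76 ± 0.49, adjusted p = 0.00088). Asns, the asparagine synthetase gene, stood at 25.1 and 25.7 RPKM in EV+RANKL libraries, against 73.7 and 39.8 RPKM in PBS libraries (-1.07 ± 0.26, adjusted p = 0.00569), and without the first PBS library its adjusted p was 0.0622. In both cases the first PBS library was the higher.

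Immediate early genes were called higher in 6 of 20 cases and lower in 7, where 19.9% and 22.1% of all tested genes were. With a filter of 5 RPKM in at least 2 libraries 11 were tested, 1 called higher and 6 lower, and with no filter 4 were lower. Spry1, an inhibitor of receptor tyrosine kinase signalling and 1 of the 6, was tested only through the EV+RANKL libraries, at 1.47 and 1.35 RPKM in EV+RANKL libraries, against 0 and 0.0173 RPKM in PBS libraries. Egr2 rose by 1.60 ± 0.19, while Ier3 fell by 1.53 (SE 0.26) and the phosphatase genes Dusp6 and Dusp1 fell by 1.09 (SE 0.35) and 1.04 (SE 0.24). The number of lower members was 2 without the first PBS library and 3 without the second EV+RANKL library. In the TGF-beta and BMP pathway 3 of 14 were called higher and 4 lower, shares near those of all tested genes. The receptor gene Tgfbr1 stood at 21.6 and 18.9 RPKM in EV+RANKL libraries, against 3.23 and 3.61 RPKM in PBS libraries (2.26 ± 0.19, adjusted p = 4.9e-06). Cd109, encoding a coreceptor that restrains TGF-beta signalling, stood at 31.5 and 26.1 RPKM in EV+RANKL libraries, against 12.5 and 11.1 RPKM in PBS libraries (1.21 ± 0.16, adjusted p = 0.00012). The 4 lower members were the receptor genes Tgfbr2 and Bmpr1a and the effectors Smad3 and Smad4, with differences of -0.34, -0.42, -0.41 and -0.38. That count was 1 without the first PBS library or without the second EV+RANKL library. Of 16 genes of vesicle surfaces and uptake 6 were called higher and 4 lower, the lower share being near that of all tested genes. Mfge8, a bridge to phosphatidylserine, was higher by 1.28 ± 0.14 and Lgals1 lower (-0.74 ± 0.12). The higher count was 2 without the first EV+RANKL library and 3 without the second or without the second PBS library.

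Several other genes of wide change fall outside these lists. Tm4sf19, a tetraspanin-like membrane protein gene of osteoclasts, stood at 65.2 and 48.4 RPKM in EV+RANKL libraries, against 5.15 and 3.65 RPKM in PBS libraries (3.42 ± 0.28, adjusted p = 3.7e-06). Angptl2, a secreted angiopoietin-like protein, stood at 13.9 and 11.7 RPKM in EV+RANKL libraries, against 0.780 and 0.513 RPKM in PBS libraries (3.07 ± 0.13, adjusted p = 2.8e-08). The creatine transporter gene Slc6a8 rose by 2.30 ± 0.26, and Gja1, the gene of the gap junction protein connexin 43, stood at 18.1 and 18 RPKM in EV+RANKL libraries, against 5.75 and 4.90 RPKM in PBS libraries (1.59 ± 0.22, adjusted p = 0.00015). On the falling side, Evl, a regulator of actin filament ends, fell by 2.58 (SE 0.25), and Basp1, a membrane and cytoskeleton protein gene, stood at 7.50 and 3.87 RPKM in EV+RANKL libraries, against 63.0 and 31.7 RPKM in PBS libraries (-2.83 ± 0.40, adjusted p = 0.00019).

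Cell cycle genes were lower at 72 h. Of 25 mitosis genes 17 were called lower and 0 higher, with a median of -0.44, and of 25 DNA replication genes 12 were called lower and 1, the licensing factor gene Cdt1, higher, also with a median of -0.44. Among all tested genes 22.1% were called lower and 19.9% higher. Birc5, the gene of the chromosomal passenger survivin, stood at 17.9 and 20.0 RPKM in EV+RANKL libraries, against 33.4 and 38.5 RPKM in PBS libraries (-0.89 ± 0.13, adjusted p = 0.00021). Rrm2, a ribonucleotide reductase subunit gene, stood at 24.5 and 33.5 RPKM in EV+RANKL libraries, against 49.6 and 59.4 RPKM in PBS libraries (-0.90 ± 0.20, adjusted p = 0.00306). The spindle gene Tpx2 fell by 1.09 (SE 0.18), while Cdc20 and Cenpa were not called. Without the first EV+RANKL library 9 mitosis and 2 replication genes were called lower, and without the second PBS library 10 and 5. Cdt1 was not called without the second EV+RANKL library, without either PBS library or with only the libraries of 72 h.

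The same treatment at 48 h, in 4 other libraries, gave 2288 calls (22.1%), 1159 higher (11.2%) and 1129 lower (10.9%). The split was 1561 higher and 1019 lower with equal sums without mitochondrial genes, and 1007 and 1330 with median-ratio scaling. The number called was 1264 to 1395 without any 1 of its libraries. Of the genes that rose at 72 h 737 had also risen at 48 h, which is 35.8% of the 72 h list and 63.6% of the 48 h list, and 23 had fallen. Of the genes that fell at 72 h 733 had also fallen at 48 h, 32.0% of the 72 h list and 64.9% of the 48 h list, and 19 had risen. The resorption list held 8 higher and 4 lower of 21 at 48 h with a median of 0.33, and macrophage identity 14 lower of 17 with a median of -2.23. Nfatc1 stood at 147 and 141 RPKM in EV+RANKL libraries of 48 h, against 11 and 12.9 RPKM in PBS libraries of 48 h, and Acp5 at 209 and 168 RPKM against 0.564 and 0.872 RPKM. For the mitosis list the counts at 48 h were 4 higher and 0 lower of 25, with a median of 0.18, and for DNA replication 1 higher and 0 lower, with a median of 0.15.

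**Figure D3:**
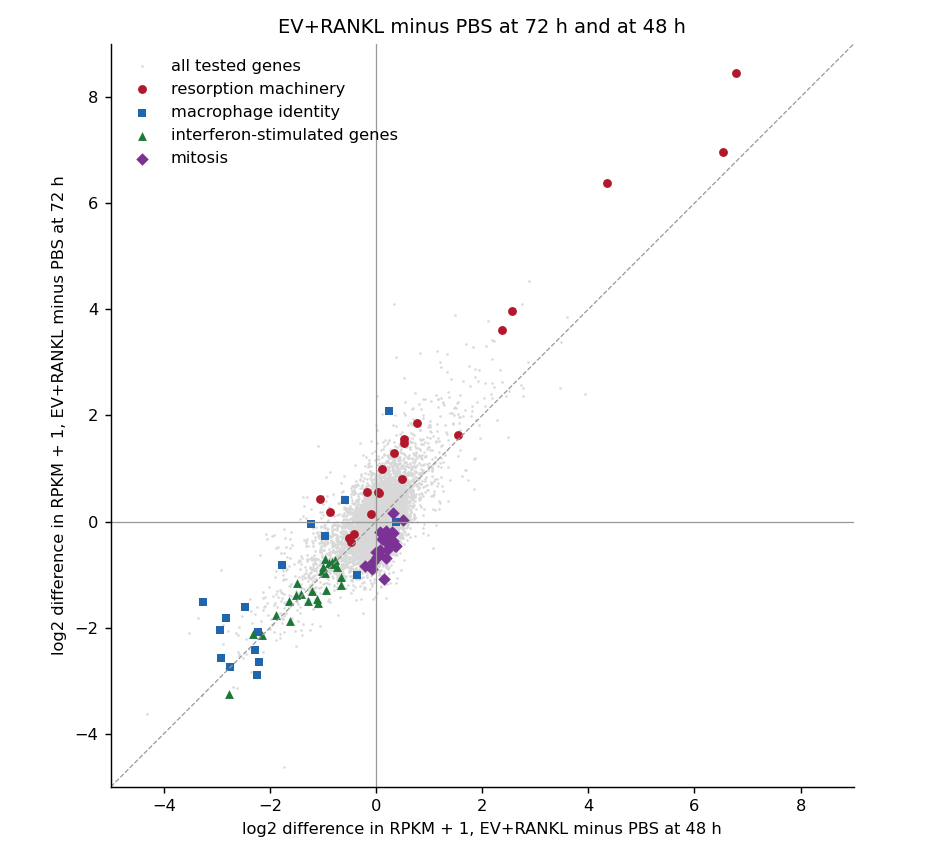
Log2 difference of RPKM + 1, EV+RANKL minus PBS, at 72 h (vertical) and at 48 h (horizontal) for all 10365 tested genes in grey and for members of 4 lists in colour; the dashed line marks equal differences. Interferon-stimulated genes lie near that line, while mitosis genes lie near 0 on the 48 h axis, with a median of 0.18, and below 0 on the 72 h axis, with a median of -0.44.

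The difference between the 72 h and the 48 h effect was tested itself. It was called for 997 genes (9.62%), 470 with a more positive effect at 72 h and 527 with a more negative one, or 694 and 511 with median-ratio scaling. This number rests on single libraries, since it was 4 without the second EV+RANKL library of 48 h, 5 without the second PBS library of 48 h, 6 without the first EV+RANKL library of 72 h, 71 without the second and 437 without the first PBS library of 72 h, 148 without the first PBS library of 48 h and 466 without the first EV+RANKL library of 48 h. Of the mitosis genes 14 were called more negative at 72 h, a count that ranged from 0 to 21 over the fits that left out 1 library. Slc37a2, encoding a sugar-phosphate exchanger of osteoclast lysosomes, stood at 94.3 and 68.3 RPKM in EV+RANKL libraries of 72 h, against 7.86 and 8.02 RPKM in PBS libraries of 72 h, a log2 difference of 3.18, and at 48 h the difference was 0.82. The 72 h effect was the larger by 2.36 ± 0.41 (adjusted p = 0.0178). Csf1r was higher by 0.41 at 72 h and lower at 48 h (-0.58), and the effects differed by 1.0 ± 0.15 (adjusted p = 0.0142).

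Set against each agent alone at 72 h, EV+RANKL cells differed from RANKL cells in 190 genes (1.83%), 135 higher and 55 lower, and from EV cells in 2278 genes (22.0%), 938 higher and 1340 lower, a split of 1189 and 1107 when libraries were scaled to equal sums without mitochondrial genes and of 1306 and 1161 with median-ratio scaling. These comparisons share the EV+RANKL libraries with the one against PBS, so the values are placed side by side only. The RANKL libraries differed from each other, with Ctsk at 66.4 and 196 RPKM, and the 190 calls were 1815 without the second and 9 without the first of them, and 5 without the first and 50 without the second EV+RANKL library. The count was also 8 when only the groups compared entered the fit and 6 with only the libraries of 72 h. Acp5, at 663 and 435 RPKM under EV+RANKL, stood at 166 and 309 RPKM under RANKL, 41.5 and 34.0 RPKM under EV and 0.642 and 0.437 RPKM under PBS. Its difference from RANKL was 1.24 ± 0.26 (adjusted p = 0.033) and from EV 3.80 (adjusted p = 4.2e-06). Nfatc1 did not differ from RANKL alone by the test (0.34 ± 0.17, adjusted p = 0.257), and Mmp9 lay close to it (0.20 ± 0.36, adjusted p = 0.788).

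The genes by which EV+RANKL exceeded RANKL most were led by Rab15, a small GTPase gene of endosomal recycling, at 10.7 and 8.46 RPKM under EV+RANKL and 1.57 and 2.33 RPKM under RANKL (1.85 ± 0.15, adjusted p = 0.00014). Angptl2 stood at 2.84 and 3.42 RPKM under RANKL and 5.40 and 4.93 RPKM under EV, both below its values with the 2 agents together (1.74 ± 0.13 over RANKL, adjusted p = 8e-05). Csf2rb2 and Slc9b2 were also named on that side. On the lower side Rtp4, Cybb, Lgals9, Irf7 and Ifi44 were named, with Rtp4 at 26.0 and 10.3 RPKM under RANKL (-2.34 ± 0.37, adjusted p = 0.0171). Of the 25 tested interferon-stimulated genes 11 were called lower than under RANKL, and of the 25 mitosis genes 1, Birc5, was called lower. Over all 10365 tested genes 55 were called lower than under RANKL. That total was 1 with only the libraries of 72 h or only the groups compared in the fit, so the 11 calls depend on the fit of all libraries. Cd109 stood at 9.90 and 12.5 RPKM under RANKL, close to its PBS values, and EV+RANKL exceeded it by 1.29 ± 0.16 (adjusted p = 0.00417).

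**Figure D4:**
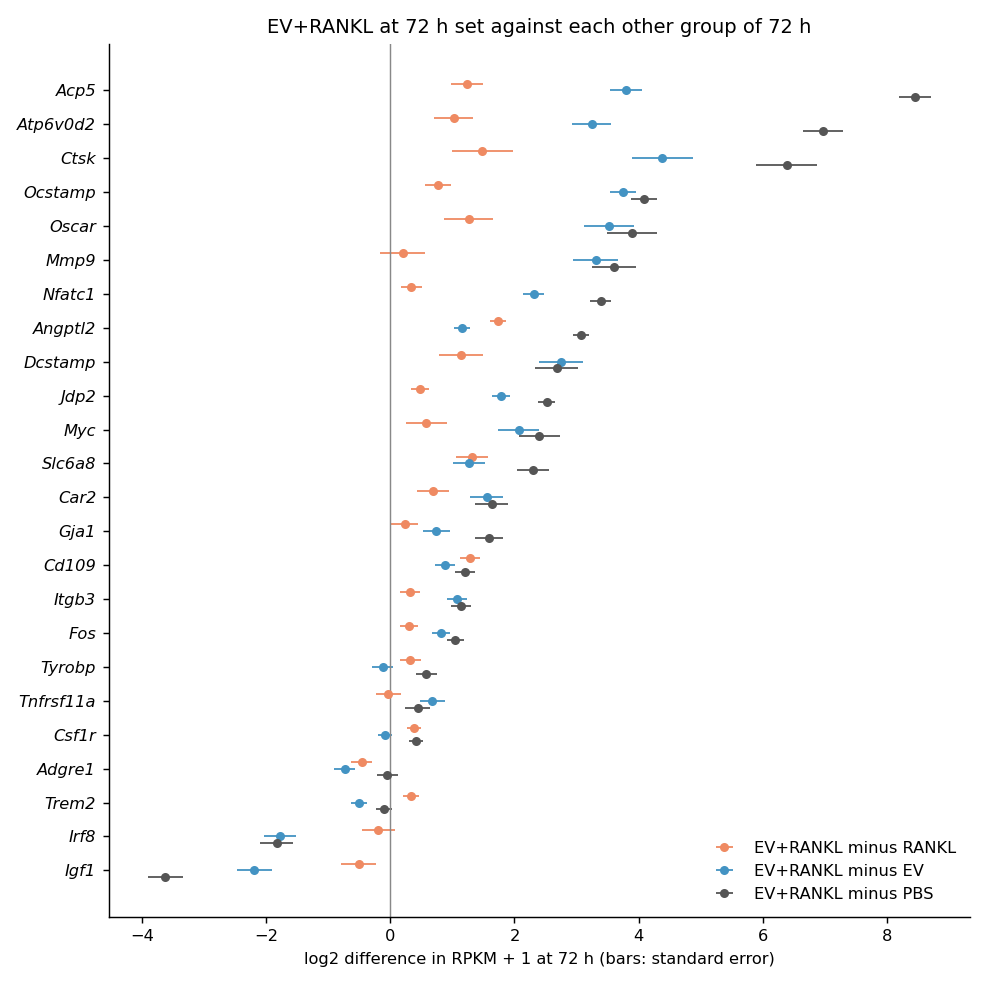
Log2 difference of RPKM + 1 between EV+RANKL and RANKL, EV or PBS at 72 h for 24 tested genes of the fixed set; points are limma estimates and bars their standard errors. Acp5, Atp6v0d2 and Ctsk stand furthest from PBS, by 8.45, 6.97 and 6.38, whereas Adgre1 and Trem2 lie near 0 against PBS.

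A departure from addition of the 2 agents on the log2 scale was called at 72 h for 1 gene (0.00965%), Acp5, whose joint effect was below the sum of the single effects (-3.41 ± 0.36, adjusted p = 0.00524), while 959 genes passed an unadjusted p of 0.05. That count was 0 without the first EV library, and 14 without the second; it was 64 and 21 without the first and the second RANKL library, and 3 and 2 without the first and the second PBS library. Among all 8 groups the EV+RANKL cells of 72 h held the highest mean of Acp5, Ctsk, Atp6v0d2, Car2, Dcstamp, Ocstamp, Oscar, Angptl2, Slc6a8 and Cd109. For each of these genes both libraries lay above the 14 others. These cells also held the highest mean of Mmp9, Itgb3 and Calcr, but without both libraries above the 14 others. For Nfatc1 and Jdp2 they ranked second after EV+RANKL at 48 h, and for Fos, Myc and Gja1 they held rank 3. Over all tested genes, both EV+RANKL libraries of 72 h lay above the 14 other libraries in 788 genes and below them in 773; for the EV group of 72 h these counts were 758 and 349.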

How the data were processed

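RNA was sequenced from 16 RAW264.7 libraries, 2 in each of 8 groups. Total RNA was extracted with an RNeasy kit and libraries were made with the TruSeq mRNA kit, per the labels' protocols. HISAT2 and Partek are named in the submitters' processing notes, beside the human builds GRCh38 and hg38, although the gene symbols are those of mouse; the build used for counting is not given in the sources used here. The authors deposited 1 table of log2 values, whose unit was inferred: with base 2, 56.1% of 41421 low values fell within 0.05 of a whole multiple of 1 read, against 38.1% for natural logarithms and 21.3% for base 10. They were read as log2(RPKM + 1). The name of 1 column has no R for RANKL and was taken, from its plus sign, as the EV+RANKL group of 48 h. No column belonged to other samples.

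All comparisons came from 1 limma fit (limma 3.58.1, R 4.3.3, trend in the variance) with 8 group means and no replicate block. Only the comparison of EV+RANKL with PBS at 72 h was checked on simulated data. The genes named by rule were the 12 with the largest rise and fall at a mean of 5 RPKM or more without overlap, the 3 with the smallest adjusted p in each list, and a set of 26 genes; for the other comparisons 5 per direction were taken. Further list members are given as examples, chosen after their values were seen. For a few genes under this rule, values are left out of the text. The 25 lists hold 555 genes, of which 533 matched and 469 were tested. Members and lists were chosen with earlier results of these data known. Replicate numbers were not taken to pair the libraries. Alternative filters, pseudocounts, scalings, sets of libraries, variance models and a replicate block were tried.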

Additional observations from a re-analysis of the deposited data

Results flagged for a closer look

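Among the fixed set of 26 genes and those named for the difference between times, there were 20 whose EV+RANKL effect differed between 72 h and 48 h by limma's test of the difference itself (adjusted p from 0.0142 to 0.0463). Oscar, Id2, Slc37a2, Itgb7, Eno3, Tuba1a, Asns, Lyar, Tmsb10 and Trip13 were named for the difference because they passed this test. Their call was thus fixed by the choice. Over all tested genes 9.62% were called. All 20 lost the call without the second EV+RANKL library of 48 h, without the second PBS library of 48 h or without the first EV+RANKL library of 72 h. Values are the log2 effect at 72 h minus that at 48 h. Among osteoclast genes the difference was 1.67 for Acp5, 1.34 for Ocstamp, 2.40 for Oscar and 0.81 for Itgb3, which reached the tested level only with the EV+RANKL libraries of 72 h, whereas Jdp2 had the smaller effect at 72 h (-0.95). Slc37a2 gave 2.36, Itgb7, an integrin chain gene, 2.18, Eno3, the muscle enolase gene, 2.05 and Angptl2 0.89. Cd109 gave 1.10, with an effect of 1.21 at 72 h and 0.11 at 48 h.

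Among genes of macrophages and of differentiation, the effects of Id2, an inhibitor of helix-loop-helix factors, were 1.43 at 72 h and -1.09 at 48 h, a difference of 2.52. The 48 h effect of Id2 was not called (adjusted p = 0.0679), and its 72 h call was lost without the first EV+RANKL or the second PBS library. Csf1r (1.0) and Tyrobp (1.21) were called higher at 72 h and lower at 48 h. Adgre1 (1.18) and Trem2 (0.89) were below PBS at 48 h, by -1.23 and -0.99, and near PBS at 72 h, by -0.05 and -0.10.

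The effect was the more negative at 72 h for Tuba1a, a tubulin gene (-1.48), Asns (-1.47), Lyar, a nucleolar protein gene (-1.41), Tmsb10, which encodes an actin-sequestering peptide (-1.39), and Trip13, a gene of the spindle checkpoint (-1.39). For Tmsb10 the 48 h effect was -0.02, and for Trip13 it was 0.21.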

How the results depend on the processing

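Of the 98 named genes 95 were called in EV+RANKL against PBS at 72 h. Of these 89 kept the call under each of the 13 alternatives that tested them. Some, Itgb3 and Spry1 among them, were too low for the filter of 5 RPKM and were not tested there. The sign of Adgre1, which was not called, turned to 0.02 without the first PBS library. The 4348 calls against PBS were 2788 with only the libraries of 72 h and 2715 to 3645 when 1 library was left out. The 190 calls against RANKL were 6 with only the libraries of 72 h, 8 with only the groups compared, 124 with a pseudocount of 0.1 and 5 to 1815 when 1 library was left out. The 2278 calls against EV were 1251 with only the libraries of 72 h, 1136 with only the groups compared and 1245 to 2282 when 1 library was left out, and the 2288 calls at 48 h were 1264 to 1395. The 997 calls for the difference between times were 341 with no filter, 2161 with only the groups compared and 4 to 822 when 1 library was left out. The single call for a departure from addition was 39 with no filter, 0 with only the libraries of 72 h or only the groups compared, and 0 to 64 when 1 library was left out. The cause was not tested.

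With the replicate number as a block, the calls against PBS were 4855, against RANKL 313, for the difference between times 1649 and for the departure from addition 4; the resorption list then held 15 higher and 2 lower of 21. Same-numbered libraries correlated at 0.40 between the 2 groups compared and from -0.11 to 0.53 over 28 pairs of groups, 17 of them over 0.1; as not every pair was, and no label ties the numbers, they are not taken as a pairing. Depth limits genes near 0: 3 reads in 1 kb are worth up to 0.163 RPKM.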
